A study of Americamysis bahia with 35 samples.

Results

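The genes described here were 166 of the 22900 Trinity genes of Americamysis bahia, a small estuarine crustacean (a mysid) used in toxicity testing, and were chosen by their counts in whole juveniles kept in the strongest leachate of unweathered tire-wear particles. A Trinity gene is a group of assembled transcripts that share an identifier. Counts were summed per gene and scaled by the library total to give CPM, the usual depth-scaled count. A gene was taken when its mean was 5 CPM or more over 35 libraries, when all 5 libraries at unweathered 1.08 g/L lay above the highest control library and above the highest library at weathered 1.34 g/L, and when at least 1 of the 5 libraries at weathered 2.68 g/L did not lie above the highest control library. The members were thus selected on measured values, and the levels in the control, at unweathered 1.08 g/L and at weathered 1.34 and 2.68 g/L are given as description without a test. The groups that did not set the direction of the choice were unweathered 0.27 and 0.54 g/L and weathered 0.67 g/L.

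The animals were 5 days old and were exposed through the water for 96 h, all in seawater of 25 ppt and all fed Artemia nauplii. The control held 0 g/L of leachate, the unweathered leachate was given at 0.27, 0.54 and 1.08 g/L, and the weathered leachate at 0.67, 1.34 and 2.68 g/L, with 5 libraries in each of the 7 groups. The 3 concentrations of one leachate were all different from those of the other, so no comparison between leachates is at a matched concentration. RNA came from whole bodies, and poly(A) RNA was sequenced with a directional kit. Whether the libraries of one group were single animals, pools or separate tanks is not said in the labels. The p-values therefore rest on the spread among libraries, and that spread may be technical. In RNA from whole bodies, fewer cells of a type and less RNA per cell cannot be told apart.

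Tire-wear particles are rubber fragments that carry antioxidants, vulcanisation agents such as benzothiazoles, and zinc, part of which passes into water as a leachate. Light, heat and water alter or remove some of these additives as particles age, so leachates of fresh and aged particles can differ in make-up. Crustaceans meet dissolved organic chemicals and metals with cytochrome P450 enzymes, conjugating transferases, efflux transporters and metallothioneins, among other gene products. The files do not pair Trinity identifiers with gene names or sequences, so no role can be given for any gene below, and none of these classes could be counted.

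Total counts ran from 18081325 to 28390588 per library, and the correlation of log2 CPM between libraries from 0.892 to 0.979. The library with the smallest total was control replicate 4. On library totals, the median gene with 5 CPM or more differed from its control mean by -0.42 log2 units in replicate 1 of weathered 0.67 g/L, the lowest of all 35 libraries, and by -0.22 in control replicate 4. Replicate 1 of weathered 0.67 g/L therefore stood apart, and most differences printed below for single members and classes against that group are given with and without it.

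The first condition left 9252 genes, or the genes with 5 CPM or more. In 359 of them (3.88% of the 9252) every library at unweathered 1.08 g/L was above the highest control library, and in 230 of these it was also above the highest library at weathered 1.34 g/L. Of the 230 genes, 64 had every library at weathered 2.68 g/L above the highest control library too and were not taken, which left the 166. The name under which the genes were gathered was genes raised by unweathered leachate only. The levels at weathered 2.68 g/L do not bear out the word only. In 15 of the 166 genes no library at weathered 2.68 g/L was above the highest control library, in 28 genes 1 library was, in 48 genes 2, in 44 genes 3 and in 31 genes 4. At least 1 weathered library was thus above all controls in 151 of the 166 genes (91.0%). The mean at weathered 2.68 g/L was above the control mean in 142 of the 166 genes. The same shares over the 9252 genes were not computed, and low control libraries were part of the choice. These counts therefore bear on the name alone, and no response to the weathered leachate is read from them. The 166 genes are called the genes higher at unweathered 1.08 g/L, or the members, from here on.

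**Figure D1:**
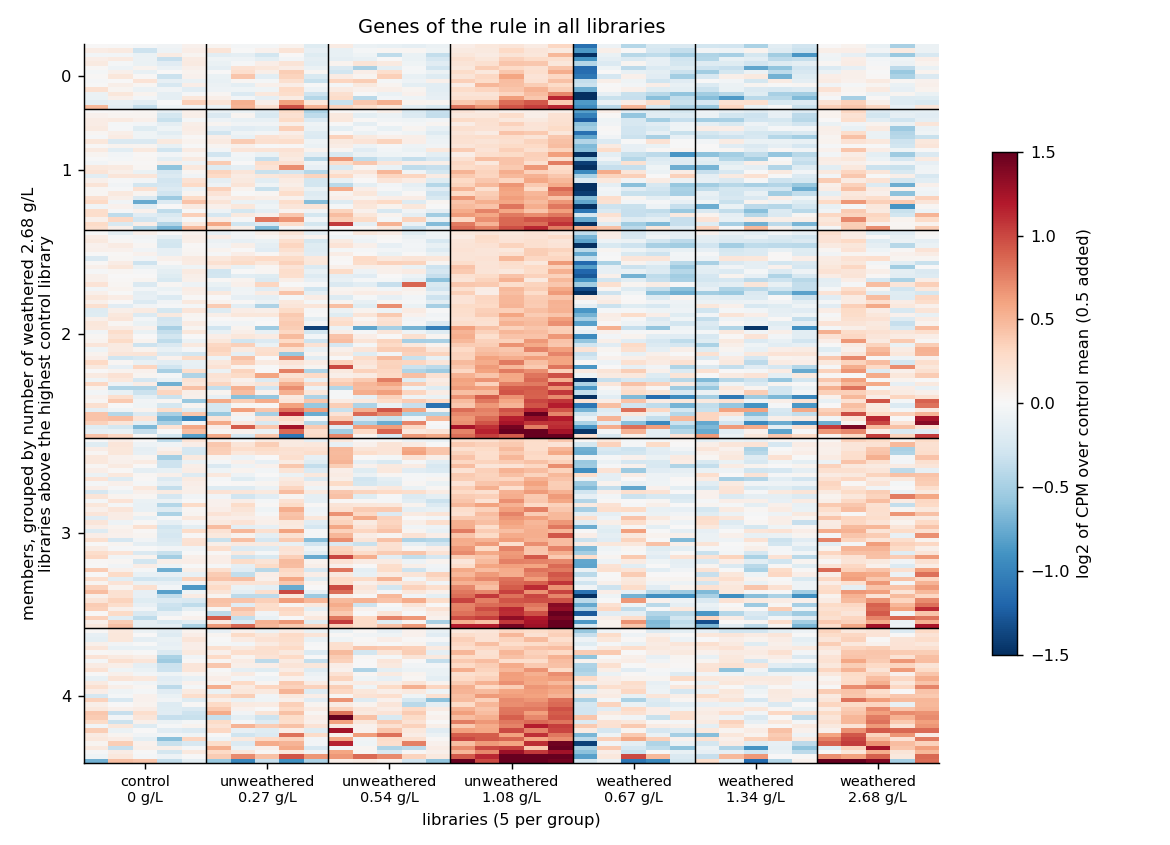
Level of the 166 members in each of the 35 libraries, as the log2 of CPM over the control mean with 0.5 CPM added, from blue (lower) to red (higher). Rows are members, set in 5 blocks by how many of the 5 libraries at weathered 2.68 g/L lay above the highest control library (15, 28, 48, 44 and 31 members for 0 to 4), and the columns at unweathered 1.08 g/L are red throughout because the rule required it, while the first column at weathered 0.67 g/L, replicate 1, is the bluest.

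The differences at unweathered 1.08 g/L were small for most members. The fold over the control, from edgeR's fit with TMM-scaled library sizes, ran from 1.12 to 3.10 with a median of 1.46. It was 2 or more in 17 members, from 1.5 to 2 in 58 and under 1.5 in 91. The highest group mean was at unweathered 1.08 g/L in 162 members, at unweathered 0.54 g/L in 2 and at weathered 2.68 g/L in 2. Since the rule used these groups, nothing is read from these counts or from the 116 members that edgeR called higher than the control at an adjusted p under 0.05, beside 2.33% of all 17990 genes tested.

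The members with the 4 largest differences differed from one another at weathered 2.68 g/L. TRINITY_DN22848_c0_g1, with a longest transcript of 945 bases, had the largest difference. Its levels in replicates 1 to 5 were 27.3, 61.7, 60.4, 35.2 and 40.8 CPM in the control and 138, 90.3, 152, 171 and 124 CPM at unweathered 1.08 g/L. At weathered 2.68 g/L they were 199, 174, 119, 31.5 and 80.7 CPM. All libraries at unweathered 1.08 g/L and 4 of 5 at weathered 2.68 g/L were above every control, and replicate 4 alone, which lay within the control range, made this gene a member. The log2 difference from the control was 1.63 (SE 0.33) at unweathered 1.08 g/L and 1.45 (SE 0.33) at weathered 2.68 g/L. The lower concentrations overlapped the control, with 22.9 to 35.3 CPM at unweathered 0.27 g/L, 29.8 to 49.1 at 0.54 g/L, 21.1 to 42.3 at weathered 0.67 g/L and 20.03 to 54.04 at 1.34 g/L.

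TRINITY_DN25454_c0_g1, a gene of 1 transcript of 1167 bases, had the second largest difference. The control libraries held 18.6, 21.9, 19.1, 18.5 and 19.5 CPM, those at unweathered 0.27 g/L 25.6, 32.1, 26.7, 38.1 and 31.1 CPM, and those at 0.54 g/L 31.000, 35.4, 32.1, 24.7 and 21.6 CPM. At 1.08 g/L the levels were 37.3, 43.4, 66.1, 63.9 and 58.5 CPM. All 5 libraries at 0.27 g/L and all 5 at 1.08 g/L were above the highest control, while at 0.54 g/L replicate 5 lay just under it. At weathered 0.67, 1.34 and 2.68 g/L the libraries held 10.9 to 39.2, 15.3 to 31.01 and 21.8 to 36.7 CPM, and at 2.68 g/L only replicate 4 did not pass the highest control. The log2 difference at unweathered 1.08 g/L was 1.51 (SE 0.22).

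TRINITY_DN2934_c0_g1, of 1 transcript of 1882 bases, had 47.5, 43.4, 35.5, 29.04 and 19.9 CPM in the control and 62.9, 72.5, 66.8, 158 and 112 CPM at unweathered 1.08 g/L, a log2 difference of 1.48 (SE 0.32). Replicates 4 and 5 of the exposed group were far above its other 3 libraries, which lay closer to the control range. At weathered 2.68 g/L replicates 3 and 5 held 72.5 and 73.0 CPM and the other 3 libraries lay inside the control range. TRINITY_DN504_c0_g1, with 4 transcripts of up to 5257 bases, had 136, 166, 110.3, 111 and 87.7 CPM in the control and 278, 278, 331, 296 and 437 CPM at unweathered 1.08 g/L, a log2 difference of 1.45 (SE 0.23). At weathered 2.68 g/L its libraries held 147, 183, 291, 116 and 286 CPM. There again replicates 3 and 5 were high, replicate 2 was above the highest control, and replicates 1 and 4 were within the control range.

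**Figure D2:**
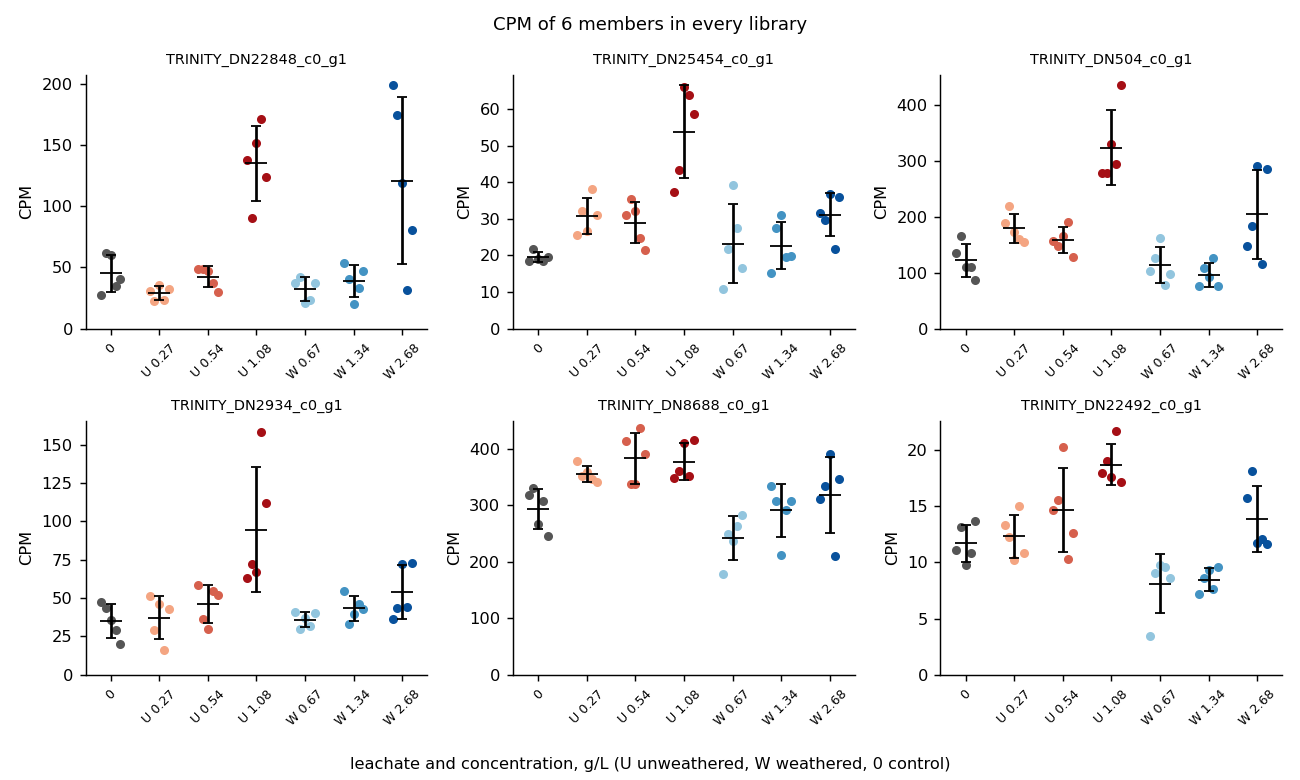
CPM of 6 members in every library, as points, with the mean and SD of each group of 5 as bars, against leachate concentration in g/L. The libraries of TRINITY_DN22848_c0_g1 at weathered 2.68 g/L spread from 31.5 to 199 CPM, and in TRINITY_DN8688_c0_g1 all 15 unweathered libraries lie above the highest control library of 329.7 CPM.

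Replicates 1 and 4 of weathered 2.68 g/L were low over the whole membership too. Replicate 4 of weathered 2.68 g/L was not above the highest control library in 124 members and replicate 1 in 116, against 81 for replicate 3, 78 for replicate 5 and 51 for replicate 2. The last condition of the rule rested on a single library in 31 members, which was replicate 1 in 18, replicate 4 in 8, replicate 3 in 3 and replicate 5 in 2. Every library at unweathered 1.08 g/L was above the highest library at weathered 2.68 g/L in 45 members, beside 1.57% of the genes with 5 CPM or more, a count the rule had favoured. The mean at unweathered 1.08 g/L was above that at weathered 2.68 g/L in 164 members. In edgeR's fit the members' median log2 difference between these groups was 0.29, and that over all genes was -0.02. No gene was called in either direction between unweathered 1.08 g/L and weathered 2.68 g/L, of 17990 tested (0% called), with 90 members and 873 genes (4.85%) higher at an unadjusted p under 0.05. The rule used both groups, so this median is a description.

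The 2 members with a higher mean at weathered 2.68 g/L than at unweathered 1.08 g/L were named after their values were seen. TRINITY_DN13794_c0_g1 had 13.3, 17.2, 14.9, 18.05 and 15.7 CPM at weathered 2.68 g/L and 15.02, 15.8, 13.6, 13.6 and 15.8 CPM at unweathered 1.08 g/L, over 11.04, 13.5, 12.9, 7.69 and 11.4 CPM in the control. Replicate 1 of the weathered group missed the highest control by a small margin and the other 4 libraries passed it. TRINITY_DN21130_c0_g1 had 6.49, 10.9, 11.4, 8.16 and 11.2 CPM at weathered 2.68 g/L, 9.60, 8.10, 8.50, 10.6 and 10.3 CPM at unweathered 1.08 g/L and 7.73, 6.91, 6.64, 4.81 and 6.37 CPM in the control. Only replicate 1 of its weathered libraries was within the control range. Both were among the 14 members that edgeR called higher at weathered 2.68 g/L than in the control, beside 0.756% of all genes tested, a comparison the rule had limited. The members' median log2 difference from the control at weathered 2.68 g/L was 0.29, beside 0.02 over all genes tested. After TMM scaling 152 of 166 members (91.6%) were above 0, beside 53.4% of all genes. Low control libraries were part of the choice, so nothing is read from this distance.

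**Figure D3:**
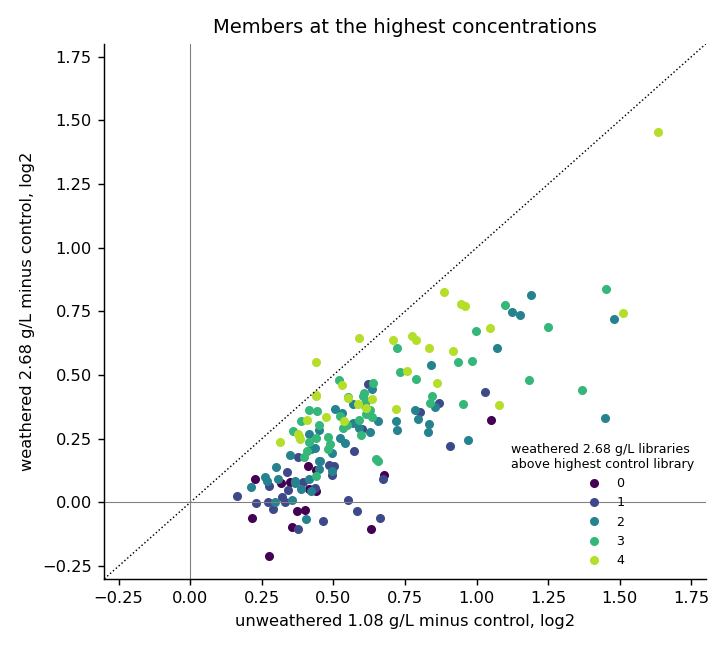
Log2 difference from the control at unweathered 1.08 g/L (horizontal) and weathered 2.68 g/L (vertical) for the 166 members, from edgeR, with colour for the number of weathered 2.68 g/L libraries above the highest control and a dotted line of equal differences. Both axes share the same control libraries, and 164 members lie below the line, with TRINITY_DN22848_c0_g1 at the upper right at 1.63 and 1.45.

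The 15 members with no weathered 2.68 g/L library above the highest control come closest to the name of the set. Their median log2 difference was 0.40 at unweathered 1.08 g/L and 0.05 at weathered 2.68 g/L. Both groups were used to choose these 15 members, so the medians only describe them. Among them TRINITY_DN2496_c0_g1, of 1 transcript of 3344 bases and named after its values were seen, had the largest fold. It held 6.27, 3.90, 3.28, 4.15 and 4.16 CPM in the control, 7.99, 7.20, 8.87, 9.49 and 10.2 CPM at unweathered 1.08 g/L and 5.71, 5.95, 5.55, 3.96 and 5.01 CPM at weathered 2.68 g/L. Its log2 differences from the control were 1.05 (SE 0.20) and 0.32 (SE 0.20). Control replicate 1 was the highest control library, and 4 of the 5 weathered libraries were above the other 4 controls.

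The members were chosen with the control libraries, so their levels at the lower unweathered concentrations against that control are given without a test. At 0.54 g/L the members' median log2 difference from the control was 0.22 and at 0.27 g/L 0.20. Every library was above the highest control in 3 members at 0.54 g/L, beside 0.508% of the genes with 5 CPM or more, and in 7 members at 0.27 g/L, beside 0.432%. At weathered 0.67 and 1.34 g/L this was so in 0 members, beside 0.13% and 0.313%. Low control libraries were part of the choice, so nothing is read from these counts. The 3 members at 0.54 g/L were TRINITY_DN2850_c1_g1, TRINITY_DN8026_c0_g1 and TRINITY_DN8688_c0_g1.

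TRINITY_DN8688_c0_g1 was the 1 member in which all 15 unweathered libraries were above the highest control. Its levels were 317, 329.7, 267, 308 and 246 CPM in the control, 379, 352, 359, 347 and 341 CPM at 0.27 g/L and 413, 337, 337, 437 and 391 CPM at 0.54 g/L. At 1.08 g/L they were 347, 359.8, 409.9, 352 and 415 CPM. The 3 unweathered groups overlapped one another, and a trend over the 3 concentrations was not tested for this gene. The weathered libraries held 179, 249, 236, 264 and 282 CPM at 0.67 g/L, 212 to 334 CPM at 1.34 g/L and 210.2 to 390.3 CPM at 2.68 g/L. TRINITY_DN2850_c1_g1, a gene of 1 transcript of 1062 bases, was compared with it library by library. It held 246, 272, 221, 267 and 202 CPM in the control, 335, 289, 277, 366 and 324 CPM at unweathered 0.54 g/L and 144, 199, 199.6, 214 and 221 CPM at weathered 0.67 g/L. The lowest library was the same in both genes in the control and in the 3 weathered groups, and a different one in the 3 unweathered groups. The highest was the same in all groups but weathered 1.34 g/L. Whether the pair shares sequence, and so reads, was not tested, because no sequences were at hand.

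The level of the membership in each library was summarised as the median log2 difference of the 166 members from their control means, less the same median over the genes with 5 CPM or more. It lay between -0.04 and 0.05 in the control libraries, with a mean of 0.007 ± 0.040 (SD, n = 5). At unweathered 0.27 g/L it lay between 0.12 and 0.23 (mean 0.18 ± 0.043, SD, n = 5) and at 0.54 g/L between 0.16 and 0.23 (mean 0.19 ± 0.029, SD, n = 5). These groups overlapped each other and neither overlapped the control. Low control libraries were part of the choice of members, so nothing is read from the distance to the control. At 1.08 g/L, which the rule chose, it lay between 0.40 and 0.60. The weathered libraries lay between -0.09 and 0.12 at 0.67 g/L (mean 0.030 ± 0.078, SD, n = 5) and between -0.004 and 0.11 at 1.34 g/L, both overlapping the control. At weathered 2.68 g/L the spread was the widest of all groups, from 0.083 and 0.13 in replicates 1 and 4 to 0.39 and 0.36 in replicates 3 and 5. The 10 unweathered libraries at 0.27 and 0.54 g/L and the 5 at weathered 0.67 g/L just met, as replicate 3 of unweathered 0.27 g/L and replicate 3 of weathered 0.67 g/L were both at 0.12.

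**Figure D4:**
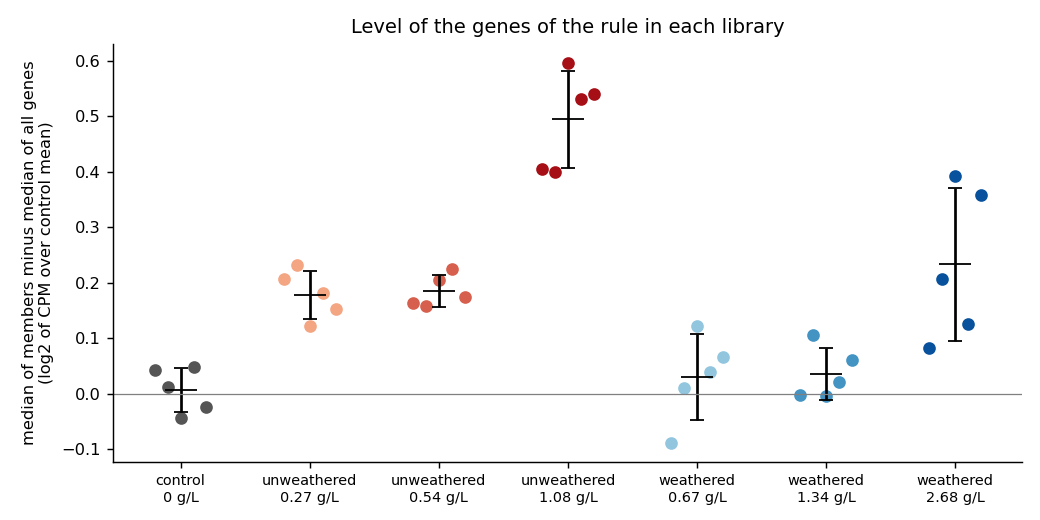
Median log2 level of the 166 members over the control mean, less the same median over all 9252 genes with 5 CPM or more, for each library (points), with the mean and SD of each group of 5 (bars). The group at unweathered 1.08 g/L, which the rule chose, is highest at 0.40 to 0.60, unweathered 0.27 and 0.54 g/L lie between 0.12 and 0.23, and the weathered 2.68 g/L libraries spread from 0.083 to 0.39.

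The members took 0.993 ± 0.075% of all counts in the control (SD, n = 5). In the unweathered leachate, from the lowest concentration up, the share was 1.10 ± 0.077%, 1.10 ± 0.052% and 1.46 ± 0.102%. In the weathered leachate, in the same order, it was 0.935 ± 0.101%, 0.944 ± 0.035% and 1.18 ± 0.127%. Whether members lay above or below the control at the lower weathered concentrations depended on the scaling. On library totals the mean was below the control mean in 117 of 166 members (70.5%) at 0.67 g/L and in 114 (68.7%) at 1.34 g/L, beside 78.3% and 75.3% of all genes with 5 CPM or more. With TMM scaling 63.3% and 62.7% of members were above the control at these concentrations. No direction is therefore given for them against the control.

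Concentration within the unweathered leachate was tested between 0.54 and 0.27 g/L, groups that did not set the choice of members. All 166 members passed the filter on low counts. edgeR's quasi-likelihood test called 0 of 166 members higher and 0 lower, as it called 0 of all 17990 genes (0%). The members' median log2 difference was 0.01, beside 0.00 over all genes, and 88 members (53.0%) were above 0, beside 49.9% of all genes. At an unadjusted p under 0.05, 4 members were higher and 1 lower. Beside these, 1.6% of all genes tested were higher, and 0.951% of genes with 5 CPM or more were lower. DESeq2 and limma-voom also called 0 members. The standard error of a member's log2 difference had a median of 0.13. On CPM, the mean at 0.54 g/L was above that at 0.27 g/L in 83 of 166 members, beside 46.9% of genes with 5 CPM or more. The 3 unweathered means followed the order of concentration from the control up in 49 members (29.5%), beside 5.25%, but the rule had put 1.08 g/L above the control.

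The 4 members higher at an unadjusted p under 0.05 were TRINITY_DN61331_c0_g1, TRINITY_DN8226_c0_g1, TRINITY_DN25241_c4_g1 and TRINITY_DN7347_c0_g1, and the 1 lower was TRINITY_DN13978_c0_g1, all named after their values were seen. TRINITY_DN61331_c0_g1 had the smallest p of these. It held 21.4, 24.6, 21.9, 33.1 and 29.3 CPM at 0.27 g/L and 96.9, 37.05, 23.2, 33.5 and 28.4 CPM at 0.54 g/L, where replicate 1 stood far above the other 4 libraries. At a log2 difference of 0.73 (SE 0.25) the edgeR adjusted p was above 0.999, and the other 4 libraries at 0.54 g/L overlapped those at 0.27 g/L.

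The leachates were compared between unweathered 0.54 g/L and weathered 0.67 g/L, and between unweathered 0.27 g/L and weathered 0.67 g/L, in libraries that did not set the choice. The weathered concentration was the higher one in both, and both comparisons share the weathered libraries. More members were higher than lower in the unweathered leachate, but no single member passed the test. For 0.54 against 0.67 g/L the members' median log2 difference was 0.16, beside -0.01 over all genes, and 132 of 166 members (79.5%) were above 0, beside 47.9% of all genes. For 0.27 against 0.67 g/L the median was 0.15, beside -0.01, and 130 members (78.3%) were above 0, beside 48.5%. Between libraries of one group the members' median log2 CPM varied. The pooled SD was 0.0953 for the groups of the first comparison and 0.0997 for those of the second (n = 5 each). Each median difference was under 2 such SDs. That SD describes single libraries and not a difference between groups of 5, whose error was not computed. No verdict therefore rests on it. At an unadjusted p under 0.05, 47 members (28.3%) were higher and 2 (1.2%) lower for 0.54 g/L. Beside these, 8.65% of the 9252 genes with 5 CPM or more were higher and 6.85% lower, and 5.76% of all genes tested were higher. For 0.27 g/L, 48 members (28.9%) were higher and 0 lower. There 8.9% of the 9252 genes were higher and 6.70% lower, and 5.66% of all genes tested were higher.

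Over all 17990 genes edgeR called 4 higher and 0 lower at unweathered 0.54 g/L (0.0222% and 0%), none of them a member, and 0 at unweathered 0.27 g/L (0%). The count of 0 members was not stable. DESeq2 called 17 members higher for 0.54 g/L (10.2% of members, beside 0.667% of all genes) and 10 for 0.27 g/L (6.02%, beside 0.7%), and limma-voom 3 (1.81%, beside 0.0889%) and 0 (beside 0%). DESeq2 gave an adjusted p to only 9965 and 8570 of the 17990 genes in these 2 comparisons. Its shares over all genes thus count genes that it could not call, and would be larger over those it could. For 0.54 g/L edgeR called 4 members without replicate 1 of weathered 0.67 g/L, 3 without its replicate 2, 4 without replicate 3, 1 without replicate 4, and 1 when unweathered 0.54 g/L lacked its replicate 4. These were 0.602% to 2.41% of the members, beside 0.011% to 0.137% of all genes in the same fits. The members called in these fits were TRINITY_DN22492_c0_g1 in 4 of the 5, TRINITY_DN5534_c0_g1 in 3, TRINITY_DN2190_c0_g1 in 2, and TRINITY_DN12856_c1_g1, TRINITY_DN45_c0_g1, TRINITY_DN3702_c0_g1 and TRINITY_DN5378_c0_g1 in 1 each. For 0.27 g/L it called 2 without replicate 2 and 4 without replicate 3 of weathered 0.67 g/L, which were TRINITY_DN5378_c0_g1 and TRINITY_DN5534_c0_g1 in both and TRINITY_DN2496_c0_g1 and TRINITY_DN3702_c0_g1 in the second (1.2% and 2.41% of members, beside 0.115% and 0.0825% of all genes). The medians moved less. Without replicate 1 of weathered 0.67 g/L they were 0.15 and 0.12, with 135 members (81.3%) and 137 members (82.5%) above 0. In that fit 43 and 36 members were higher at an unadjusted p under 0.05. The shares over all genes beside these counts were not computed for that fit, so no excess is read from them. With all libraries in the fit, the members' medians ran under the other scalings from 0.14 to 0.23 and from 0.13 to 0.22. They were largest with library totals, where the median over all genes rose to 0.05 and 0.07. They were above 0 in each of these settings.

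**Figure D5:**
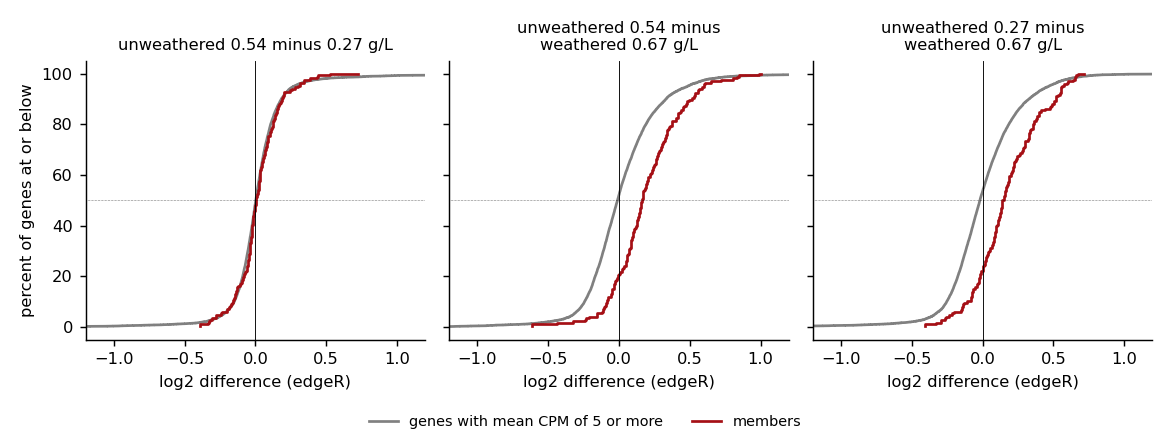
Cumulative share (percent) of the log2 difference from edgeR for the 166 members (red) and the 9252 genes with 5 CPM or more (grey), for unweathered 0.54 minus 0.27 g/L (left), unweathered 0.54 minus weathered 0.67 g/L (middle) and unweathered 0.27 minus weathered 0.67 g/L (right). The member curve follows the grey one on the left (median 0.01) and lies to its right in the other panels (medians 0.16 and 0.15).

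The members with the smallest adjusted p in these comparisons, named after their values were seen, show how near the groups lay. TRINITY_DN22492_c0_g1, of 1 transcript of 4545 bases, held 14.7, 15.5, 20.3, 10.3 and 12.6 CPM at unweathered 0.54 g/L and 3.45, 9.09, 9.75, 9.60 and 8.63 CPM at weathered 0.67 g/L. Every unweathered library was above every weathered one, by a small margin between replicate 4 of the first and replicate 3 of the second. The log2 difference was 0.81 (SE 0.16, edgeR adjusted p = 0.0588). At unweathered 0.27 g/L its libraries held 13.3, 12.2, 10.2, 14.97 and 10.8 CPM, and the log2 difference from weathered 0.67 g/L was 0.55 (SE 0.16, edgeR adjusted p = 0.167). Without replicate 1 of weathered 0.67 g/L, its lowest library there, the differences were 0.66 (SE 0.13, edgeR adjusted p = 0.0319) and 0.39 (SE 0.13, edgeR adjusted p = 0.517), so that the first passed the test. TRINITY_DN5378_c0_g1, of 1 transcript of 5125 bases, had the smallest adjusted p for 0.27 g/L. It held 42.8, 37.2, 42.04, 52.1 and 35.001 CPM there and 12.3, 30.9, 36.8, 24.9 and 23.2 CPM at weathered 0.67 g/L, where replicate 3 reached into the unweathered range. The log2 difference was 0.66 (SE 0.13, edgeR adjusted p = 0.0671), and this became, without replicate 1 of weathered 0.67 g/L, 0.52 (SE 0.10, edgeR adjusted p = 0.0554).

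Every library at unweathered 0.27 and 0.54 g/L was above the highest library at weathered 0.67 g/L in 5 members, beside 0.53% of the genes with 5 CPM or more. Besides TRINITY_DN22492_c0_g1, TRINITY_DN8688_c0_g1 and TRINITY_DN2850_c1_g1 these were TRINITY_DN5534_c0_g1 and TRINITY_DN119847_c0_g1. TRINITY_DN5534_c0_g1 held 51.7 to 73.4 CPM at unweathered 0.27 g/L, 53.8 to 67.5 CPM at 0.54 g/L and 20.3, 50.03, 47.2, 41.8 and 40.5 CPM at weathered 0.67 g/L. Its log2 differences were 0.52 (SE 0.11, edgeR adjusted p = 0.0686) for 0.54 g/L and 0.52 (SE 0.11, edgeR adjusted p = 0.0870) for 0.27 g/L. Without replicate 1 of weathered 0.67 g/L they were 0.40 (SE 0.08, edgeR adjusted p = 0.0319) and 0.39 (SE 0.08, edgeR adjusted p = 0.0665), and the first passed the test. The control libraries of this gene, at 48.4 to 63.8 CPM, overlapped both lower unweathered groups, while 4 of the 5 libraries at weathered 0.67 g/L were below the lowest control. TRINITY_DN119847_c0_g1 held 69.9 to 83.6 and 71.7 to 82.5 CPM at unweathered 0.27 and 0.54 g/L and 24.9, 58.8, 58.1, 69.1 and 57.6 CPM at weathered 0.67 g/L. For TRINITY_DN8688_c0_g1 the log2 difference was 0.61 (SE 0.16, edgeR adjusted p = 0.120) for 0.54 g/L, and for TRINITY_DN2850_c1_g1 it was 0.65 (SE 0.16, edgeR adjusted p = 0.0924). Without that library these were 0.58 (SE 0.16, edgeR adjusted p = 0.264) and 0.62 (SE 0.16, edgeR adjusted p = 0.176).

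In 4 members, named after their values were seen, every library at weathered 0.67 and 1.34 g/L was below the lowest control on library totals, which is 2.41% of members, beside 1.91% of the genes with 5 CPM or more. They were TRINITY_DN14010_c0_g1, TRINITY_DN22492_c0_g1, TRINITY_DN6519_c0_g1 and TRINITY_DN8870_c0_g1. TRINITY_DN14010_c0_g1, with 12 transcripts of up to 6108 bases the member with the most transcripts, held 326, 323, 319.6, 313 and 338 CPM in the control and 233 to 291 CPM at weathered 1.34 g/L. At weathered 0.67 g/L it held 149, 307, 241, 277 and 279 CPM and at unweathered 1.08 g/L 348 to 402 CPM. TRINITY_DN8870_c0_g1 had nearly equal control libraries, at 29.4 to 31.2 CPM, against 19.7 to 23.3 CPM at weathered 1.34 g/L and 5.72 to 27.4 CPM at weathered 0.67 g/L. The rule asked for libraries at weathered 1.34 g/L below those at unweathered 1.08 g/L, and the general shift of weathered libraries on library totals lies beside these values, so no direction against the control is read from them.

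The differences between the leachates were also split by how the members stood at weathered 2.68 g/L. For unweathered 0.27 against weathered 0.67 g/L the median log2 difference was 0.38 in the 15 members with no weathered 2.68 g/L library above the highest control, 0.19 with 1 library, 0.18 with 2, 0.12 with 3 and 0.04 with 4. For unweathered 0.54 against weathered 0.67 g/L it was 0.25, 0.16, 0.19, 0.16 and 0.08. The classes were set by libraries that these comparisons did not use. By the size of the fold at unweathered 1.08 g/L the medians were 0.29 for the 17 members with a fold of 2 or more, 0.19 for the 58 from 1.5 to 2 and 0.14 for the 91 below, in the comparison of 0.54 g/L. In the comparison of 0.27 g/L they were 0.30, 0.13 and 0.14. Without replicate 1 of weathered 0.67 g/L the first set of medians was 0.20, 0.11, 0.16, 0.09 and 0.11 and the second 0.17, 0.13, 0.16, 0.15 and 0.12, a narrower range in both comparisons. The first set was then no longer ordered by class, and the second had not been so with all libraries either. By fold they were then 0.23, 0.17 and 0.14 for 0.54 g/L and 0.21, 0.14 and 0.11 for 0.27 g/L. No test was made between these classes.

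Length moved with these differences over all genes. Among the 9252 genes with 5 CPM or more, those with a longest transcript above the median of 2207 bases had a median log2 difference of 0.05 for 0.54 against 0.67 g/L and the shorter ones -0.06. Among members it was 0.19 in the 100 longer ones and 0.11 in the 66 shorter ones. For 0.27 against 0.67 g/L these medians were 0.04 and -0.07 over all genes and 0.21 and 0.03 among members. Without replicate 1 of weathered 0.67 g/L the medians over all genes were 0.04 and -0.02 for 0.54 g/L and 0.02 and -0.03 for 0.27 g/L, and those of members 0.16 and 0.14, and 0.18 and 0.06. Members were above genes of the same length class in each, and the part of length in the result was not tested.

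The 3 most abundant members by CPM were not among the 4 described first, which were named for having the largest differences. TRINITY_DN9411_c0_g1, of 4450 bases, held 1231, 1184, 871, 928 and 1197 CPM in the control and 1414, 1401, 1727, 1606 and 1427 CPM at unweathered 1.08 g/L, a log2 difference of 0.54 (SE 0.14). At unweathered 0.27 g/L it held 1339, 1381, 1012, 1521 and 1254 CPM, of which 4 libraries were above the highest control, and at 0.54 g/L 912, 1062, 1332, 1212 and 1121 CPM, of which 1 was. TRINITY_DN19750_c2_g1, of 2866 bases, held 628, 804, 594, 627 and 417 CPM in the control and 851, 1059.8, 915, 1229.5 and 1294 CPM at unweathered 1.08 g/L, a log2 difference of 0.84 (SE 0.21). At weathered 2.68 g/L its libraries held 568, 715, 1183, 603 and 1134 CPM, so that replicates 3 and 5 were again high and the other 3 lay in the control range. TRINITY_DN2306_c0_g1, of 1740 bases, held 549.5, 450.3, 449, 453 and 521 CPM in the control and 576, 599, 623, 649.7 and 670.5 CPM at unweathered 1.08 g/L, a log2 difference of 0.41 (SE 0.0847).

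In the weathered leachate TRINITY_DN2306_c0_g1 held 470.0 to 579.8 CPM at 0.67 g/L, 519 to 563 CPM at 1.34 g/L and 548 to 625 CPM at 2.68 g/L, where 4 of the 5 libraries were above the highest control. At unweathered 0.54 g/L it held 577, 649, 635, 619.8 and 532 CPM, where only replicate 5 was under the highest control. Per length, it was the most abundant member, at 525 TPM over the 35 libraries, followed by TRINITY_DN19750_c2_g1 at 411 TPM and TRINITY_DN9411_c0_g1 at 402 TPM. None of the 3 passed the test between the leachates. The log2 difference for unweathered 0.54 against weathered 0.67 g/L was 0.11 (SE 0.14), -0.03 (SE 0.20) and 0.12 (SE 0.0845) for TRINITY_DN9411_c0_g1, TRINITY_DN19750_c2_g1 and TRINITY_DN2306_c0_g1 (edgeR adjusted p = 0.886, 0.989 and 0.707). For unweathered 0.27 against weathered 0.67 g/L the values were 0.30 (SE 0.14), 0.13 (SE 0.20) and -0.02 (SE 0.0845) (edgeR adjusted p = 0.476, 0.907 and 0.975). Without replicate 1 of weathered 0.67 g/L these differences were 0.14 (SE 0.15), 0.05 (SE 0.21) and 0.15 (SE 0.085) for 0.54 g/L, and 0.32 (SE 0.15), 0.21 (SE 0.21) and 0.01 (SE 0.0849) for 0.27 g/L. The sign turned in TRINITY_DN19750_c2_g1 for the first and in TRINITY_DN2306_c0_g1 for the second, and none passed the test.

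The 4 members with the largest difference at unweathered 1.08 g/L did not pass the test between the leachates either. For TRINITY_DN504_c0_g1 the libraries at unweathered 0.27 g/L held 190.1, 220.0, 173, 161 and 155 CPM and those at weathered 0.67 g/L 104, 127, 163, 78.4 and 97.2 CPM. Replicate 3 of the weathered group lay inside the unweathered range and the other 4 below it. The log2 difference was 0.60 (SE 0.23, edgeR adjusted p = 0.321). For TRINITY_DN25454_c0_g1 it was 0.36 (SE 0.21), for TRINITY_DN2934_c0_g1 -0.02 (SE 0.31) and for TRINITY_DN22848_c0_g1 -0.24 (SE 0.32), with edgeR adjusted p = 0.592, 0.991 and 0.883. Without replicate 1 of weathered 0.67 g/L the difference of TRINITY_DN504_c0_g1 was 0.64 (SE 0.25). For the other 3 it was 0.22 (SE 0.21), 0.12 (SE 0.33) and -0.09 (SE 0.34) in the same order, so that the sign turned in TRINITY_DN2934_c0_g1, and none of the 4 passed the test. At unweathered 0.54 g/L the 4 members had, in this order, means of 158, 29.0, 46.3 and 42.3 CPM. At weathered 0.67 g/L the means of all 5 libraries were 114, 23.2, 36.0 and 32.3 CPM. Without replicate 1 of weathered 0.67 g/L the log2 differences between these groups were 0.47 (SE 0.25), 0.14 (SE 0.21), 0.42 (SE 0.33) and 0.44 (SE 0.34). All 4 were above 0 in that fit and none passed the test. For this comparison, CPM means and no log2 differences are printed for all libraries.

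As a set, the members were somewhat more abundant than the genes they were drawn from. Their mean level had a median of 24.6 CPM and ran from 5.02 to 1175 CPM, beside a median of 17.1 CPM over the 9252 genes. Per length the medians were 17.8 TPM and 15.5 TPM. The longest transcript had a median of 2534 bases, beside 2207. A single transcript was listed in 90 of the 166 members (54.2%), beside 55.1%. No Trinity component, the unit from which Trinity splits its genes, held more than 1 member, so the members did not include neighbouring genes of one component.

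Of the 76 members with more than 1 transcript, the transcript with the largest difference between unweathered 1.08 g/L and the control carried at least 80% of the gene's difference in 29, and a median of 70.8% over the 76. It was also the most abundant transcript in 62. At least 1 transcript was lower than in the control in 16 of the 76. The authors' deposited table for unweathered 1.08 g/L lists 246 transcripts of 163 members and gives 103 of these, from 93 members, as higher at an adjusted p under 0.05, beside 2.51% of all its 13326 transcripts. The authors' deposited tables give 2 member transcripts as higher at unweathered 0.54 g/L, beside 0.180% of all transcripts listed, and 0 at 0.27 g/L, beside 0.0300%. In the authors' deposited tables for the weathered leachate 1 was higher at 0.67 g/L (beside 0.128%), 10 at 2.68 g/L (0.983%) and 0 at 1.34 g/L (0.0750%), with 0 lower in any table. Each of these tables compares with the control libraries that the rule used. The rule also used the libraries at unweathered 1.08 g/L and at weathered 1.34 and 2.68 g/L. Nothing is therefore read from these counts.

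The membership itself was sharp only by definition. Just inside the limit of 5 CPM lay TRINITY_DN16826_c0_g1 with a mean of 5.02 CPM, and just outside TRINITY_DN320108_c0_g2 with 4.26 CPM. At the limit on separation, TRINITY_DN1316_c0_g1 had its lowest library at unweathered 1.08 g/L equal within rounding to the highest control or weathered 1.34 g/L library, both 15.02 CPM, and was a member. TRINITY_DN3531_c0_g1, with 177 CPM in both, fell just short. With TMM-scaled library sizes in place of totals the rule gave 170 genes, of which 106 were among the 166. With single transcripts in place of genes it gave 169 transcripts, which came from 122 of the 166 members among other genes. Without control replicate 5 it gave 254 genes, which held 158 of the 166.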

How the data were processed

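The members and the lists were chosen with earlier results of these data known. RNA-seq was made from 35 libraries of whole mysids in 7 groups of 5, grouped by the labels' leachate and concentration. Per the submitters' processing notes, trimming used Trimmomatic 0.38 and transcript quantification kallisto, and DESeq2 is named too. Nothing here names the assembly, its annotation or kallisto's version. The deposited library tables hold kallisto's estimated counts and TPM per transcript, per the file headers. kallisto divides reads among similar transcripts, so values of near-identical copies are uncertain. The deposited comparison tables hold log2 fold changes and adjusted p-values for each concentration against the control, per the file headers. They list part of the transcripts, by a filter the headers do not name. A joined count table holding the same counts was not used.

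Estimated counts of 34903 transcripts were summed over 22900 Trinity genes and rounded. Totals were 18081325 to 28390588 per library, and no unassigned share is listed. CPM was the count scaled by the library total, and log2 levels per library had 0.5 CPM added. Tests used edgeR 4.0.16 (R 4.3.3): filterByExpr (minimum count 10, minimum total 15) left 17990 genes, library sizes were TMM-scaled, and 1 quasi-likelihood fit held all 35 libraries with 1 mean per group and no covariate. P-values were adjusted by Benjamini-Hochberg over the 17990 genes, with a threshold of 0.05. The 3 tested comparisons were unweathered 0.54 against 0.27 g/L and each of these against weathered 0.67 g/L. Comparisons with the control, unweathered 1.08 g/L, weathered 1.34 g/L or weathered 2.68 g/L were used by the rule and are descriptions. The scripts were tested on simulated data.

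By rule, the text names the 4 members with the largest log2 difference at unweathered 1.08 g/L, the 3 with the highest CPM, up to 4 called in a tested comparison (there were 0) and those on either side of each limit. Others were named after their values were seen. Alternatives were other scalings, no count filter, fits of only the groups compared, DESeq2 1.42.0, limma-voom (limma 3.58.1), a replicate block, each library left out, and other settings of the rule. Tables were handled with Python 3.11.15, pandas 2.3.3 and numpy 2.4.6, and figures drawn with matplotlib 3.10.9.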

Additional observations from a re-analysis of the deposited data

Results flagged for a closer look

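TRINITY_DN9411_c0_g1, the member with the highest CPM, had 1 library far from the others of its group at weathered 0.67 g/L. Replicate 3 held 1334 CPM, and the other 4 libraries held 881 to 960 CPM, so that the gap to the nearest was 0.827 of the whole range, above the 0.71 allowed for 5 samples. Of 56 groups of 5 examined in this way, over the named members and the library medians, this was the 1 beyond the limit, and chance alone passes it in about 1 of 20 groups. Without this library the weathered group of this gene lies below all 5 libraries at unweathered 0.27 g/L, which held 1012 to 1521 CPM.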

How the results depend on the processing

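With other settings the rule gave 189 genes at a minimum of 1 CPM, 135 at 10 CPM, 170 with TMM-scaled library sizes, 169 with single transcripts and 15 when no weathered 2.68 g/L library could be above the highest control. With 1 library left out it gave from 148 (without weathered 2.68 g/L replicate 1) to 254 (without control replicate 5) genes. For unweathered 0.54 against weathered 0.67 g/L the 4 calls over all genes became 0 with only the compared groups in the fit, 120 higher and 32 lower with DESeq2 and 16 higher with limma-voom. The 0 members called became 1 with library totals (TRINITY_DN2850_c1_g1), 17 with DESeq2 and 3 with limma-voom. Leaving out 1 library gave 0 to 25 genes higher, 0 to 11 lower and 0 to 4 members higher, the extremes being without replicate 1 or 5 of unweathered 0.54 g/L (0 genes higher) and without replicate 3 of weathered 0.67 g/L (25 higher, 11 lower). For unweathered 0.27 against weathered 0.67 g/L, DESeq2 called 126 genes higher, 32 lower and 10 members higher, and leaving out 1 library gave 0 to 21 higher, 0 to 6 lower and 0 to 4 members higher, with 21 without replicate 2 and 15 without replicate 3 of weathered 0.67 g/L. Between the lower unweathered concentrations each of these settings gave 0 calls. The causes of these moves were not tested. The members' median differences without 1 library ran from -0.01 to 0.04 for unweathered 0.54 against 0.27 g/L, 0.15 to 0.19 for 0.54 against weathered 0.67 g/L and 0.12 to 0.18 for 0.27 against weathered 0.67 g/L. In the last comparison the median was 0.38 over the 15 members with no weathered 2.68 g/L library above the highest control. The signs that turned under some setting belonged to values near 0 that passed no test: the members' median between the lower unweathered concentrations, the medians over all genes, and TRINITY_DN19750_c2_g1, TRINITY_DN2306_c0_g1 and TRINITY_DN2934_c0_g1 between the leachates. None of the other members among the 7 with the largest difference or the highest CPM changed sign in a tested comparison, and all 7 stayed short of the threshold in each setting. Same-numbered libraries did not deviate together throughout (r from -0.37 to 0.27, -0.01 to 0.35 and -0.14 to 0.26 in the 3 comparisons, and not every library correlated best with its own number), so the replicate numbers were not taken to pair the libraries. With a replicate block the calls over all genes were 0, 4 and 0, those among members 0, and the members' medians 0.00, 0.17 and 0.15. How depth limits single members was not tested.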
